A study of Mus musculus with 5 samples.

Results

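Insulin signalling and glucose uptake were followed here through 10 listed genes in the visceral adipose tissue of mice. The genes were Insr, Irs1, Irs2, Pik3r1, Akt2, Tbc1d4, Slc2a1, Slc2a4, Trarg1 and Enpp1. They were listed by name, with earlier results of these data known. All 10 were among the 78334 gene identifiers of the count table, and all 10 had enough counts to be among the 24779 genes tested. The animals were male C57BL/6 mice, an inbred laboratory strain, aged 8 weeks when the diet began and 16 weeks when treatment began. Resveratrol mice (2 libraries) were fed a high-fat diet, fat supplying 60% of the kcal, for 8 weeks and were afterwards given the plant polyphenol resveratrol through a gastric tube, 2.25 mg/kg daily for 28 days. Obesity mice (2 libraries) ate the same diet and received the vehicle alone, and the control (1 library) was on standard chow with the vehicle. Tissue was taken after 12 weeks, and the sources do not say which diet the high-fat groups ate during the treatment.

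Insulin binds its receptor, a tyrosine kinase encoded by Insr, which phosphorylates the docking proteins IRS1 and IRS2. These recruit phosphoinositide 3-kinase through its regulatory subunit, encoded by Pik3r1, and the lipid made by that kinase activates AKT2. In fat cells AKT2 phosphorylates TBC1D4, a brake on the Rab proteins that steer vesicles, so that vesicles carrying the glucose transporter GLUT4 move to the cell surface. Slc2a4 encodes GLUT4, Trarg1 encodes a membrane protein of those vesicles that regulates GLUT4 trafficking in adipocytes, and Slc2a1 encodes GLUT1, the transporter of basal uptake. Enpp1 encodes an ectonucleotide pyrophosphatase that, in human cells, binds the insulin receptor and inhibits it. Most of the pathway is switched by phosphorylation and vesicle movement, which messenger RNA levels do not record.

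The libraries held 19540961 to 27026597 counts each, and levels are given as CPM, each count relative to its library's total after TMM scaling. The control group has 1 library and so no SD. Whether the pair of libraries in a group stems from different animals is not labelled, and p-values reflect library spread only. Marker sums of several cell types differed between the libraries. A list of 15 adipocyte genes had a sum of 8735 CPM in resveratrol library 1 and 42612 CPM in resveratrol library 2, against 39588 and 44824 CPM in obesity and 628 CPM in the control. No gene of that list was at 0 in any library. In resveratrol library 1, 14 of the 15 stood below both obesity libraries, and in the control library all 15 did. A list of 10 smooth muscle genes summed to 55780 CPM in resveratrol library 1, with 10 of 10 above both obesity libraries, against 1287 CPM in resveratrol library 2, 1579 and 1239 CPM in obesity and 2635 CPM in the control, with none at 0 in any library. A list of 12 genes of the epididymis, the duct that stores sperm, summed to 64310 CPM in the control library, where 12 of 12 were above both obesity libraries. In resveratrol library 1 it summed to 3399 CPM, of which the single gene Crisp1 gave 3397 CPM, with 2 of 12 above both obesity libraries and Lcn8, Lcn9 and Cst11 at 0. In the other 3 libraries it summed to 0.238 to 18.2 CPM. Macrophage markers (8 genes) summed to 473 and 3141 CPM in the resveratrol libraries, 2958 and 2769 CPM in obesity and 165 CPM in the control, and endothelial markers (8 genes) to 248 and 1448, 772 and 643, and 188 CPM in that order. Obesity library 1 differed from its partner in brown adipocyte markers (8 genes), at 208 CPM against 12.5 CPM, and in epithelial markers (8 genes), at 259 CPM against 4.52 CPM. Epithelial markers reached 736 CPM in resveratrol library 1 and 1846 CPM in the control. The part of these cell types in the values below was not tested. In bulk tissue fewer cells of a type and less RNA per cell cannot be told apart.

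**Figure D1:**
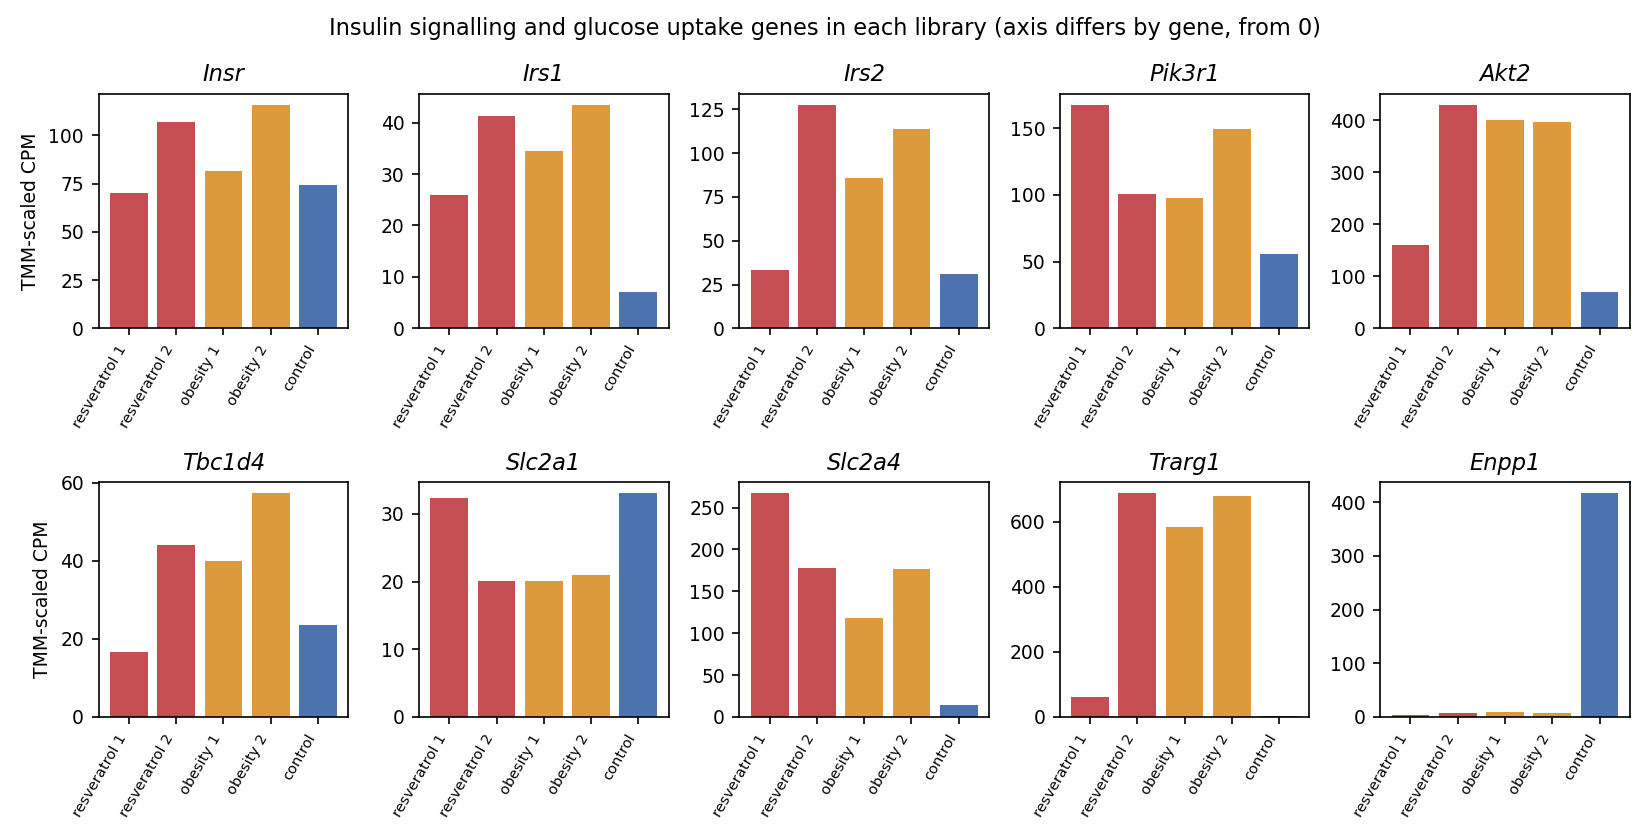
TMM-scaled CPM (vertical axis, from 0, differing by gene) of the 10 genes in resveratrol libraries 1 and 2, obesity libraries 1 and 2 and the control library, 1 bar per library. Trarg1 stood at 61.7 CPM in resveratrol library 1 and at 584 to 688 CPM in the other high-fat libraries, while Enpp1 reached 416 CPM in the control library alone.

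Obesity against control asked how these genes differ between diet-induced obesity and the lean state. The receptor, docking protein, kinase and GLUT4 genes stood above the control in each obesity library, and the basal transporter Slc2a1 and the inhibitor Enpp1 stood lower. Both obesity libraries can fall on the same side of a single control library without a difference. The share of all genes that did so was not counted. Of the 79 tested genes of the wider pathway lists described below, 45 had both obesity libraries above the control and 30 had both below. Lying on the same side of the control therefore does not set the members apart. Among the members, the steepest differences were those of Trarg1, at 376-fold higher, and Enpp1, at 49.3-fold lower. Of the 10 genes, 8 were higher and 2 lower, with a median log2 difference of 1.42, beside 46.9% of all tested genes higher and a median of -0.10. In the quasi-likelihood test of edgeR no member had an adjusted p under 0.05, nor did any other gene (background 0.0%), the smallest adjusted p over all genes being 0.0999. At an unadjusted p under 0.05 there were 5 members, Irs1, Akt2, Slc2a4 and Trarg1 higher and Enpp1 lower, against 24.3% of all genes. DESeq2 called the same 5, with adjusted p from 4.39e-18 for Enpp1 to 0.0123 for Akt2, against 18.3% of all genes. Limma-voom called none of the 10, with a smallest adjusted p among them of 0.0542, against 0.0% of all genes. The adipocyte list in the control library stood at 1.49% of its obesity mean and the epididymis list at 64310 CPM, so diet and tissue content cannot be told apart in this comparison.

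Resveratrol against obesity asked how these genes differed with the compound in mice that had been fed the high-fat diet. Slc2a4 was the 1 member of 10 whose libraries did not overlap between the groups, beside 33.7% of all tested genes without overlap. It had 267 and 178 CPM in the treated libraries against 118 and 177 CPM in the obesity libraries. The gap of 178 to 177 CPM was within counting error, with exact Poisson 95% intervals of 172.6 to 183 and 171.4 to 182.8 CPM. Of the 10 genes, 3 were higher and 7 lower, with a median log2 difference of -0.26, beside 52.8% of all genes higher and a median of 0.05. None passed in edgeR's quasi-likelihood test (background 0.0%), where the smallest adjusted p over all genes was 0.899. None of the members had an unadjusted p under 0.05, against 2.34% of all genes. DESeq2 called none of them, against 0.884% of all genes, and limma-voom called none, against 0.0%.

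The 2 resveratrol libraries did not give the same picture. Without resveratrol library 1, all 10 members lay within 0.37 of the obesity mean on the log2 scale, 7 of the 10 differences changed sign, and edgeR called none of them (background 0.136%). Without resveratrol library 2, edgeR called 5 members, all lower with resveratrol, against 19.5% of all genes. These were Trarg1, with a log2 difference of -3.35 (adjusted p = 0.000976), Irs2 with -1.57 (adjusted p = 0.00965), Tbc1d4 with -1.54 (adjusted p = 0.0173), Akt2 with -1.30 (adjusted p = 0.00983) and Enpp1 with -0.99 (adjusted p = 0.0497). In both fits the lone resveratrol library was assumed to vary like the obesity libraries. Resveratrol library 1 was the library with the adipocyte list at 20.7% of its obesity mean and the smooth muscle list at 55780 CPM. Whether those transcripts set its low values of these genes was not tested.

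Resveratrol against control shares the control library with the diet comparison and the resveratrol libraries with the treatment comparison, so its values stand beside theirs and add no separate count. Of the 10 genes, 8 were higher and 2 lower, with a median log2 difference of 1.32, beside 51.4% of all genes higher and a median of 0.05. EdgeR's quasi-likelihood test called 0 genes (background 0.0%), with a smallest adjusted p of 0.134. Members with an unadjusted p under 0.05 were 4, Irs1, Slc2a4 and Trarg1 higher and Enpp1 lower, against 18.5% of all genes. The other 6 members differed by 0.26 (Insr), 1.38 (Irs2), 1.26 (Pik3r1), 2.07 (Akt2), 0.37 (Tbc1d4) and -0.33 (Slc2a1) on the log2 scale, with edgeR adjusted p from 0.274 to 0.765. DESeq2 called these 4 (Irs1, Slc2a4, Trarg1 and Enpp1), against 12.5% of all genes, and limma-voom called none of the 10, against 0.323% of all genes.

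The spread between the resveratrol libraries entered every comparison, because all 5 libraries were fitted together. With resveratrol library 1 left out, obesity against control had 8 members called, all but Insr and Slc2a1, against 37.9% of all genes, and the same 8 were called with resveratrol library 2 left out, against 37.3%. Resveratrol against control had 6 members called without resveratrol library 1 (Irs1, Irs2, Akt2, Slc2a4, Trarg1 and Enpp1), against 30.7% of all genes. Without resveratrol library 2 it had 6 (Irs1, Pik3r1, Akt2, Slc2a4, Trarg1 and Enpp1), against 17.2%. No member was called in any comparison with either obesity library left out.

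**Figure D2:**
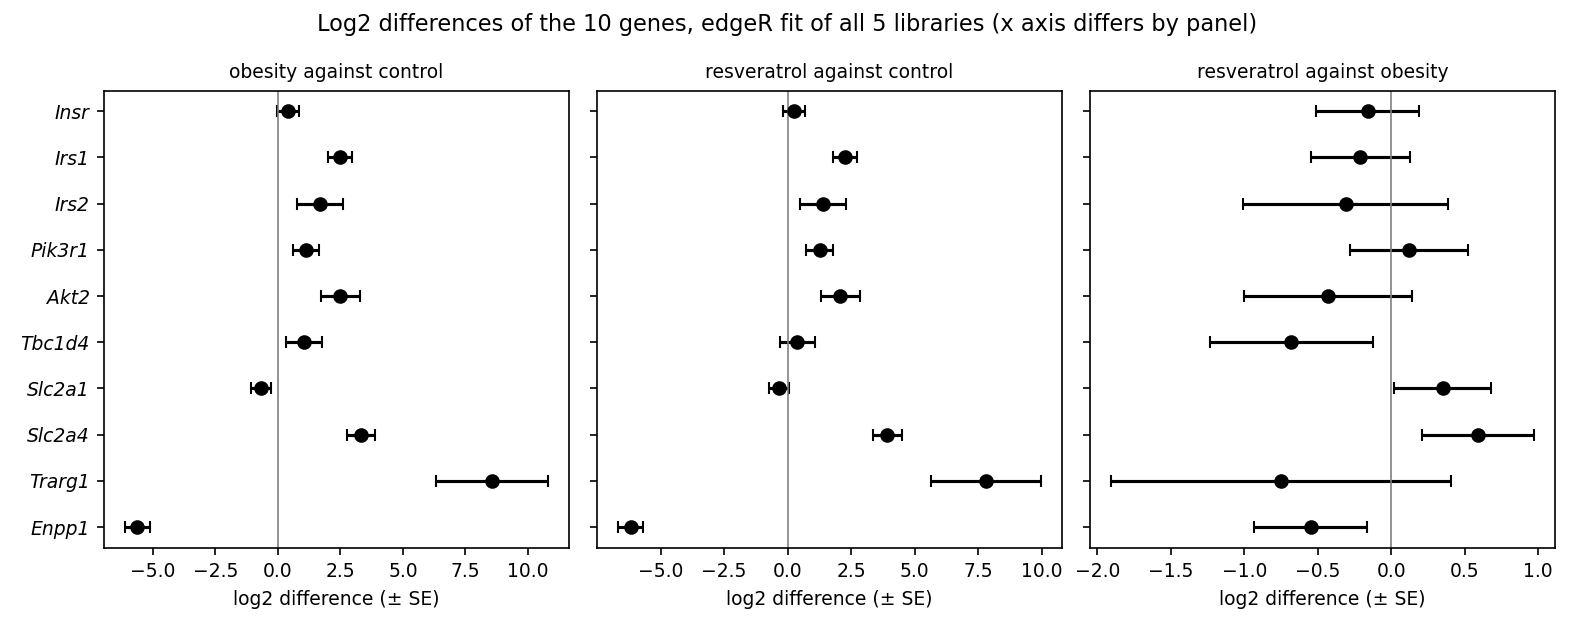
Log2 difference of each gene (horizontal axis, differing by panel) with its standard error, in obesity against control, resveratrol against control and resveratrol against obesity, from the edgeR fit of all 5 libraries. Trarg1 at 8.56 and Enpp1 at -5.62 lie farthest from 0 in obesity against control, and the differences of resveratrol against obesity lie between -0.75 and 0.59.

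Insr (ENSMUSG00000005534), the receptor gene at the head of the pathway, varied least against the control. It had 70.1 and 107 CPM in the resveratrol libraries, 81.7 and 116 CPM in the obesity libraries and 74.1 CPM in the control library. The resveratrol libraries lay on either side of the control value, and the resveratrol and obesity ranges overlapped. Insr differed on the log2 scale by 0.42 (SE 0.438, adjusted p = 0.545) in obesity against control and by -0.16 (SE 0.351, adjusted p = 0.953) in resveratrol against obesity.

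The docking protein genes differed from the control by unequal amounts. Irs1 (ENSMUSG00000055980) had 26.0 and 41.2 CPM in the resveratrol libraries, 34.4 and 43.5 CPM in the obesity libraries and 7.04 CPM in the control library. All 4 high-fat libraries lay above the control, and the resveratrol and obesity ranges overlapped. The log2 difference was 2.47 (SE 0.474, adjusted p = 0.179) in obesity against control, -0.21 (SE 0.340, adjusted p = 0.930) in resveratrol against obesity and 2.25 (SE 0.468, adjusted p = 0.224) in resveratrol against control. Irs2 (ENSMUSG00000038894) had 33.5 and 128 CPM in the resveratrol libraries, 86.0 and 114 CPM in the obesity libraries and 30.9 CPM in the control library. Resveratrol library 1 was close to the control for this gene, and resveratrol library 2 was above both obesity libraries. The log2 difference was 1.69 (SE 0.928, adjusted p = 0.296) in obesity against control and -0.31 (SE 0.698, adjusted p = 0.954) in resveratrol against obesity. Per kb of exon, the ratio of Irs2 to Irs1 was 1.86 and 4.48 in the resveratrol libraries, 3.61 and 3.78 in the obesity libraries and 6.34 in the control library. Irs2 was thus above Irs1 per kb in all 5 libraries, and by the smallest ratio in resveratrol library 1.

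The promoters of both docking protein genes are shown because, of the members matched, they alone held an E-box or an insulin response core. Their low levels in the control library, the other reason for the choice, were not particular to them. Of the 10 members, 8 were lower in the control library than in both obesity libraries. The E-box, CACGTG, is bound by basic helix-loop-helix factors such as TFE3, and the insulin response core, TGTTTTG, is a site of FOXO factors, which insulin signalling turns off. Both FOXO and TFE3 are known to act on the mouse Irs2 promoter. The windows run from 250 bases before to 50 bases after the gene start in RefSeq (GRCm38.p6), at chr1:82291390-82291689 on the minus strand for Irs1 and chr8:11008880-11009179 on the minus strand for Irs2. Capitals mark the E-box and the core, which in Irs1 share letters.
Irs1: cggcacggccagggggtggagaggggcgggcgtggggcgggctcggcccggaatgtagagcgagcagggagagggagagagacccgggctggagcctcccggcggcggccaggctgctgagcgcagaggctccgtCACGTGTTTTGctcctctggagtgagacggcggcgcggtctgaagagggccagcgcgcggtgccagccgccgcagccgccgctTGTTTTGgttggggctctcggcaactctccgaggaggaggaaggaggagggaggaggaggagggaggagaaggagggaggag
Irs2: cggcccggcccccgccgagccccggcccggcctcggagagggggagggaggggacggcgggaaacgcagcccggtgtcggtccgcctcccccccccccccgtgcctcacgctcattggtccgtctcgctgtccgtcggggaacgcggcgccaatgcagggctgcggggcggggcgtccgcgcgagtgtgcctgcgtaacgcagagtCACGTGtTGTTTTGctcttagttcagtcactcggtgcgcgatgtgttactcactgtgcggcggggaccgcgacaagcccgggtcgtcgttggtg
The E-box began 115 bases before the gene start in Irs1, and the cores began 111 and 32 bases before it. In Irs2 the E-box began 44 bases and the core 37 bases before the start. The nearest E-box and core thus began 4 bases apart in Irs1 and 7 bases apart in Irs2. Both strands of 32851 promoter windows of this length were searched, and 7.15% held an E-box, 6.28% the core, and 9 windows (0.0274%) had both beginning within 12 bases of each other. Closeness was looked for after the windows had been read, and a match of letters is a description, not a binding site. Windows were present for 7 of the 10 members. Those of Slc2a1, Akt2, Enpp1, Pik3r1 and Tbc1d4 held neither motif, and no entry was found for Insr, Slc2a4 and Trarg1. The GC box GGGCGG, to which SP1 binds, was in a window of each of the 7 members, but not in every window of Akt2 and Pik3r1. Counted by window and not by gene, it was in 35.7% of all windows.

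Downstream of the docking proteins, Pik3r1 (ENSMUSG00000041417), the regulatory subunit gene, had 167 and 100.4 CPM in the resveratrol libraries, 97.8 and 149 CPM in the obesity libraries and 56.1 CPM in the control library. The high-fat libraries were all above the control, and resveratrol library 1 held the highest value. Its log2 difference was 1.14 (SE 0.520, adjusted p = 0.246) in obesity against control and 0.12 (SE 0.403, adjusted p = 0.977) in resveratrol against obesity. Akt2 (ENSMUSG00000004056), the AKT kinase gene most tied to glucose uptake, had 161 and 430.3 CPM in the resveratrol libraries, 400.4 and 398 CPM in the obesity libraries and 70.3 CPM in the control library. The obesity libraries were nearly level, and resveratrol library 1 lay between them and the control. Akt2 differed by 2.50 on the log2 scale (SE 0.796, adjusted p = 0.190) in obesity against control and by -0.43 (SE 0.571, adjusted p = 0.914) in resveratrol against obesity.

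Akt2 was compared with its paralog Akt1, the AKT gene tied more to growth. Per kb of exon, the ratio of Akt2 to Akt1 was 0.533 and 1.40 in the resveratrol libraries, 1.29 and 1.35 in the obesity libraries and 0.415 in the control library. Akt2 was therefore the higher of the pair in resveratrol library 2 and in both obesity libraries, and the lower in resveratrol library 1 and the control, the libraries with the lowest adipocyte sums. Tbc1d4 (ENSMUSG00000033083), the AKT substrate gene, had 16.6 and 44.0 CPM in the resveratrol libraries, 39.96 and 57.3 CPM in the obesity libraries and 23.5 CPM in the control library. Resveratrol library 1 was below the control here, whereas the other high-fat libraries were above it. Tbc1d4 had a log2 difference of 1.05 (SE 0.713, adjusted p = 0.371) in obesity against control and -0.68 (SE 0.557, adjusted p = 0.899) in resveratrol against obesity.

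The transporter genes went different ways. Slc2a1 (ENSMUSG00000028645), the GLUT1 gene, had 32.3 and 20.1 CPM in the resveratrol libraries, 20.1 and 21.0 CPM in the obesity libraries and 33.1 CPM in the control library. Resveratrol library 1 was close to the control, and the other 3 libraries lay within 1 CPM of each other. For Slc2a1 the log2 difference was -0.68 (SE 0.397, adjusted p = 0.313) in obesity against control and 0.35 (SE 0.332, adjusted p = 0.899) in resveratrol against obesity. Slc2a4 (ENSMUSG00000018566), the GLUT4 gene, stood at 14.6 CPM in the control library beside the resveratrol and obesity values given above. All 4 high-fat libraries were above the control, with resveratrol library 1 the highest, while resveratrol library 2 and obesity library 2 were nearly level. Its log2 difference was 3.33 (SE 0.554, adjusted p = 0.172), or 10.1-fold, in obesity against control, 0.59 (SE 0.379, adjusted p = 0.899) in resveratrol against obesity and 3.92 (SE 0.574, adjusted p = 0.189) in resveratrol against control. Without resveratrol library 1 the difference of resveratrol against obesity was 0.28 (adjusted p = 1.0).

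Trarg1 (ENSMUSG00000046275), the GLUT4 vesicle gene, had 61.7 and 688 CPM in the resveratrol libraries, 584 and 680 CPM in the obesity libraries and 1.67 CPM in the control library. The control value rests on 48 counts, with an exact Poisson 95% interval of 1.23 to 2.22 CPM that covers counting error alone. Resveratrol library 2 lay with the obesity libraries, and resveratrol library 1 stood between them and the control. The log2 difference was 8.56 (SE 2.23, adjusted p = 0.182) in obesity against control, -0.75 (SE 1.16, adjusted p = 0.928) in resveratrol against obesity and 7.80 (SE 2.15, adjusted p = 0.241) in resveratrol against control. Slc2a4 and Trarg1, whose products share a vesicle, were thus apart in resveratrol library 1, which held the highest Slc2a4 level and the lowest Trarg1 level of the 4 high-fat libraries. Per kb of exon, the ratio of Slc2a4 to Trarg1 was 4.11 and 0.245 in the resveratrol libraries, 0.192 and 0.247 in the obesity libraries and 8.31 in the control library. The ratio of Slc2a4 to Slc2a1 per kb was 8.32 and 8.91 in the resveratrol libraries, 5.93 and 8.48 in the obesity libraries and 0.447 in the control library.

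Skeletal muscle also makes GLUT4, and a list of 8 skeletal muscle markers summed to 1090 and 44.0 CPM in the resveratrol libraries, 95.5 and 55.2 CPM in the obesity libraries and 11.8 CPM in the control library. The sum in resveratrol library 1 came almost wholly from the actin gene Acta1, at 811 CPM, and the creatine kinase gene Ckm, at 255 CPM. There 4 of the 8 stood above both obesity libraries, as 4 did in resveratrol library 2 and 5 in the control, while Myh1 and Pvalb stood below both and Myh4 was at 0. The highest Slc2a4 level came from the library with the highest smooth muscle sum and the lowest adipocyte sum of the high-fat libraries. Their part in the Slc2a4 level was not tested.

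**Figure D3:**
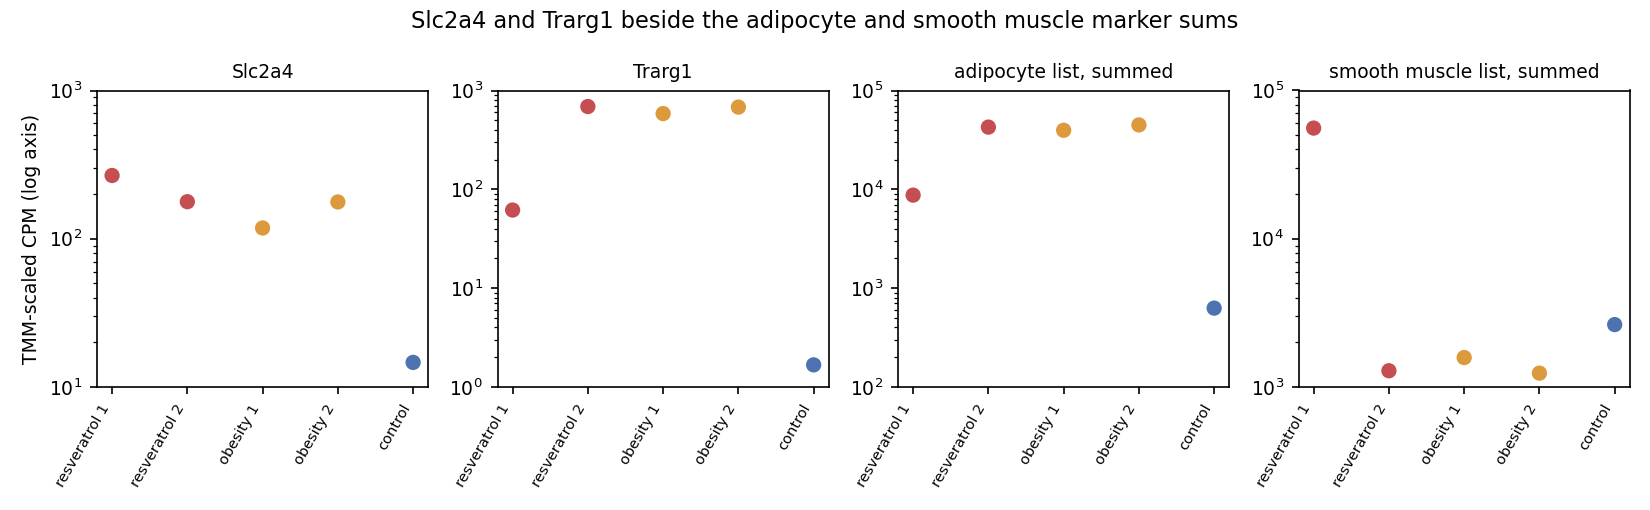
TMM-scaled CPM (log axes, 1 point per library) of Slc2a4, of Trarg1, and of the summed adipocyte and smooth muscle marker lists. Trarg1 and the adipocyte sum are both lowest in the control and next lowest in resveratrol library 1, whereas Slc2a4 is highest, at 267 CPM, in resveratrol library 1, where the smooth muscle sum is 55780 CPM.

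Enpp1 (ENSMUSG00000037370), the inhibitor gene, had 4.22 and 7.31 CPM in the resveratrol libraries, 9.70 and 7.19 CPM in the obesity libraries and 416 CPM in the control library. The value in resveratrol library 1 rests on 93 counts, with an exact Poisson 95% interval of 3.41 to 5.18 CPM. All 4 high-fat libraries were below 10 CPM, and the resveratrol and obesity ranges overlapped. The log2 difference was -5.62 (SE 0.485, adjusted p = 0.160) in obesity against control, -0.55 (SE 0.384, adjusted p = 0.899) in resveratrol against obesity and -6.17 (SE 0.495, adjusted p = 0.175) in resveratrol against control. The control library is the library with the epididymis list at 64310 CPM, and the part of that tissue in the Enpp1 level was not tested.

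Each member was also expressed per 1000 CPM of the summed adipocyte list, as a description without a test. This scale divides by adipocyte sums that stood at 20.7% of the obesity mean in resveratrol library 1 and 1.49% in the control library. A gene above about that percentage of its obesity mean in CPM is carried above the mean by the divisor. On this scale the order turned for most members, and the share of all genes that turn was not counted. In the control library 9 of the 10 members stood above their obesity mean, from 6.73 times for Slc2a4 to 3272 times for Enpp1, and Trarg1 stood at 17.8% of it. In resveratrol library 1 the same 9 stood above it, from 163% for Irs2 to 882% for Slc2a4, and Trarg1 stood at 47.2%. Resveratrol library 2 lay between 81.2% for Pik3r1 and 127% for Irs2. In CPM, Insr, Irs1, Irs2, Pik3r1, Akt2, Tbc1d4 and Slc2a4 were higher in obesity than in the control, and lower per adipocyte transcript. Their control levels in CPM, from 9.92% (Slc2a4) to 75.0% (Insr) of the obesity mean, all exceeded 1.49%. The division alone thus fixes their order on this scale, and no conclusion about these genes is drawn from it. Trarg1 was the member lower in the control library and in resveratrol library 1 on both scales. The sizes depend on the divisor. With Adipoq, Plin1 and Cidec alone, the same 9 stood at 16.3 times for Slc2a4 to 7769 times for Enpp1 in the control library and at 229% for Irs2 to 1243% for Slc2a4 in resveratrol library 1. Trarg1 then stood at 66.0% in resveratrol library 1 and 42.9% in the control library. Values on this scale in the control library divide by an adipocyte sum of 628 CPM, and they count members' transcripts from every cell type present.

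**Figure D4:**
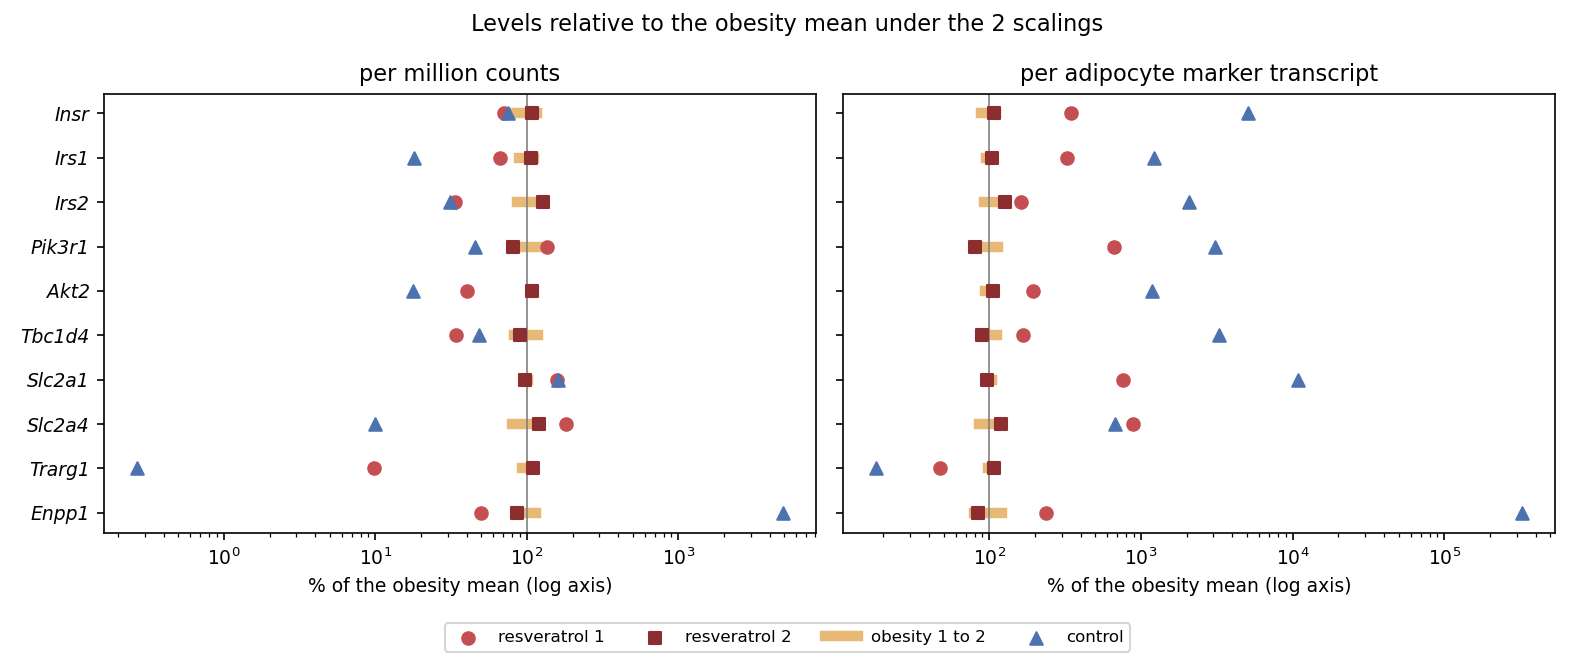
Level of each gene as a percentage of its obesity mean (log axes), CPM on the left and per adipocyte marker transcript on the right, for resveratrol libraries 1 and 2, the span of the 2 obesity libraries and the control. Per adipocyte transcript the control and resveratrol library 1 points lie right of 100% for 9 of the 10 genes, with Trarg1 at 17.8% and 47.2% on the left of it.

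Gene levels can be set between genes only per length, and exon lengths here come from an annotation of another build than the counts. In CPM per kb of exon, Trarg1 was the highest member in the obesity libraries, at 177 and 206. Next came Akt2 at 56.2 and 55.8, Slc2a4 at 34.0 and 50.9, Irs2 at 13.6 and 18.0, and Pik3r1 at 9.71 and 14.8. The ranges of Irs2 and Pik3r1 overlapped, as did those of Insr at 5.94 and 8.43, Slc2a1 at 5.73 and 6.00 and Tbc1d4 at 5.21 and 7.46. Irs1 at 3.77 and 4.75 and Enpp1 at 0.946 and 0.701 were the lowest. Resveratrol library 2 had Trarg1 at 208 and Akt2 at 60.3 per kb, with Slc2a4 at 51.1, the same leading 3. In resveratrol library 1 Slc2a4 led at 76.8 per kb, ahead of Akt2 at 22.5 and Trarg1 at 18.7. The control library was led by Enpp1 at 40.6 per kb, and Trarg1 at 0.507 was its lowest member.

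The genes whose patterns lay nearest to each member were ranked by the distance between centred log2 CPM over the 5 libraries, among 10190 genes with a mean of at least 10 CPM. Akt2 was nearest to the retinoid receptor gene Rxra, at a distance of 0.13, followed by Fmo1 and Asap1. Trarg1 lay nearest to Orm1 at 0.34, Hcar2 at 0.35 and the leptin gene Lep at 0.46. Nearest to Slc2a4 were Itga5 and Pdzd2 at 0.27 and Art3 at 0.33, and nearest to Enpp1 were Ap3b2 at 0.66, Ap1s2 at 0.76 and Slc7a11 at 0.80. The other nearest genes were Stk4 for Insr at 0.12, Bak1 for Irs1 at 0.14, Chd7 for Irs2 at 0.17, Larp1b for Pik3r1 at 0.24, Txlng for Tbc1d4 at 0.21 and Terf2ip for Slc2a1 at 0.07. Among the members themselves the closest pair was Irs1 and Akt2 at 0.70, then Irs2 and Tbc1d4 at 0.81. Over 5 libraries such nearness is weakly determined.

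The wider pathway was read from 7 lists of 81 further genes, of which 79 were tested. In obesity against control 48 of the 79 were higher and 31 lower, with a median log2 difference of 0.53, beside 46.9% of all genes higher and a median of -0.10, and edgeR called 0. At an unadjusted p under 0.05 there were 26 of the 79, 19 higher and 7 lower, against 24.3% of all genes. DESeq2 called 24 of the 79, 17 higher and 7 lower, against 18.3% of all genes. In resveratrol against obesity 40 were higher and 39 lower, with a median of 0.01, and none had an unadjusted p under 0.05 (2.34% of all genes) or a call by DESeq2 (0.884%). The libraries of these 2 groups did not overlap for 31 of the 79, 21 above and 10 below, beside 33.7% of all genes. In resveratrol against control 54 were higher and 25 lower, with a median of 0.60, beside 51.4% of all genes higher and a median of 0.05. EdgeR called 0 of them, 22 had an unadjusted p under 0.05 (18.5% of all genes), and DESeq2 called 19, 15 higher and 4 lower (12.5% of all genes). By list, obesity against control had 4 of 10 receptor and adaptor genes higher, 8 of 10 kinase and phosphatase genes, 10 of 15 downstream targets, 8 of 10 negative regulators, 10 of 15 vesicle genes, 7 of 14 other transporters and hexokinases, and 1 of 5 ENPP genes.

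At the receptor level, Igf1r, the gene of the related receptor for insulin-like growth factor, stood lower in every high-fat library than in the control, at 61.2 and 30.4 CPM with resveratrol, 24.3 and 20.0 CPM in obesity and 228 CPM in the control. Igf1r was above both obesity libraries in each resveratrol library, with a log2 difference of 1.05 (SE 0.425, adjusted p = 0.899). In the kinase list Pdpk1, which encodes the kinase that activates AKT, had a log2 difference of 1.29 (SE 0.350, adjusted p = 0.182) in obesity against control. In that list Pik3cb was below both obesity libraries in each resveratrol library, at 15.7 and 55.4 CPM against 63.6 and 84.6 CPM. Its log2 difference was -1.06 (SE 0.671, edgeR adjusted p = 0.899) in resveratrol against obesity. Among downstream targets, Pde3b, the phosphodiesterase gene through which insulin restrains lipolysis, stood at 115 and 229 CPM with resveratrol, 197 and 265 CPM in obesity and 20.2 CPM in the control. Tbc1d1 of the same list had 166 and 34.3 CPM with resveratrol, 35.2 and 36.0 CPM in obesity and 88.7 CPM in the control. Its log2 difference was 1.49 (SE 0.802, edgeR adjusted p = 0.899) in resveratrol against obesity, with resveratrol library 1 alone above the obesity libraries. Gys1, the glycogen synthase gene, was above both obesity libraries in each resveratrol library, at 127 and 105 CPM against 71.2 and 93.2 CPM. The log2 difference of Gys1 was 0.50 (SE 0.275, adjusted p = 0.899). Such a lack of overlap was found for 33.7% of all genes.

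Among negative regulators, Grb14, a receptor-binding inhibitor gene, stood at 20.6 and 17.5 CPM in obesity against 2.55 CPM in the control. Socs1, a cytokine-induced inhibitor gene, reached 18.0 and 6.42 CPM in the resveratrol libraries, against 3.96 and 3.90 CPM in the obesity libraries, and differed by 1.63 on the log2 scale (SE 0.647, adjusted p = 0.899). In the GLUT4 vesicle list Lnpep, the gene of an aminopeptidase that travels in GLUT4 vesicles, stood at 111 and 181 CPM with resveratrol, 147 and 178 CPM in obesity and 44.4 CPM in the control. Stxbp3 of that list was lower in both resveratrol libraries, at 23.4 and 41.8 CPM against 61.9 and 51.5 CPM in obesity. Its log2 difference was -0.80 (SE 0.372, edgeR adjusted p = 0.899), and 33.7% of all genes likewise lacked overlap. Vamp2 of the same list was higher in both resveratrol libraries, at 140 and 88.3 CPM against 80.0 and 63.8 CPM in obesity. The log2 difference of Vamp2 was 0.67 (SE 0.343, edgeR adjusted p = 0.899). Of the 15 genes of this list, 4 were above both obesity libraries in each resveratrol library and 3 were below. Myo1c, a motor protein gene of vesicle delivery, had 180 and 505 CPM with resveratrol, 334 and 443 CPM in obesity and 34.2 CPM in the control, and so was lowest in the control and next lowest in resveratrol library 1, the order of Trarg1.

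Among other transporters, the GLUT5 fructose transporter gene Slc2a5 had levels of 0.136 and 0.194 CPM with resveratrol, 0.261 and 0.190 CPM in obesity and 20.4 CPM in the control, high in the same library as Enpp1. Slc2a12, the GLUT12 gene, had 42.2 and 6.81 CPM with resveratrol, 4.54 and 3.05 CPM in obesity and 1.05 CPM in the control, and its log2 difference was 2.69 (SE 0.999, adjusted p = 0.899) in resveratrol against obesity. Like Slc2a4 it was highest in resveratrol library 1. In the ENPP family, Enpp5 shared the high control level of Enpp1, at 102 and 79.0 CPM with resveratrol, 67.0 and 57.6 CPM in obesity and 584 CPM in the control. Enpp2, the autotaxin gene, had 711 and 106 CPM with resveratrol, 181 and 135 CPM in obesity and 727 CPM in the control, high in both libraries with the lowest adipocyte sums.

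**Figure D5:**
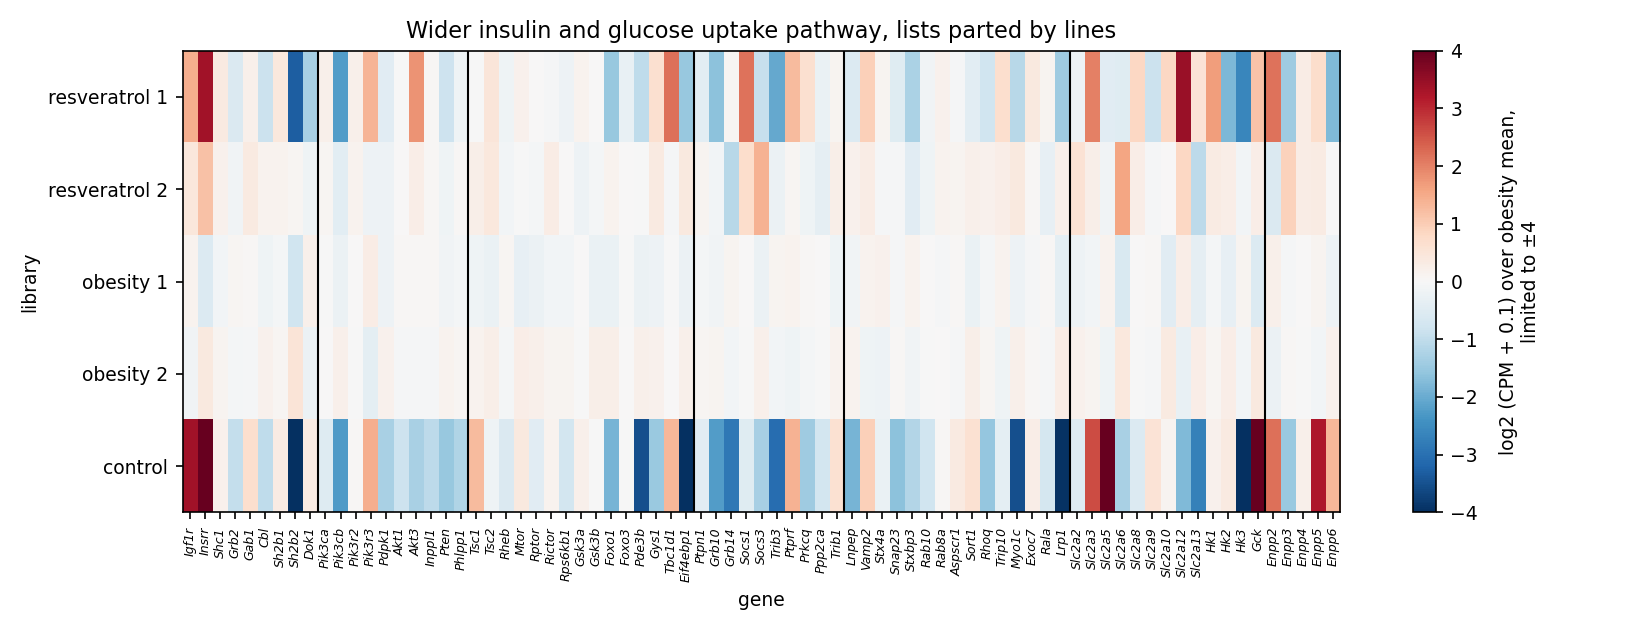
Colour gives the log2 ratio of CPM plus 0.1 to the obesity mean, limited to 4 in either direction, for wider pathway genes with a mean of at least 1 CPM (columns, lists parted by lines) in the 5 libraries (rows). The control row holds the strongest colours, such as Slc2a5 at 20.4 CPM and Myo1c at 34.2 CPM, and Slc2a12 stands out in resveratrol library 1 at 42.2 CPM.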

How the data were processed

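The authors deposited a table of raw whole-number counts per Ensembl mouse gene in 5 visceral fat libraries, made with featureCounts on GRCm39, with FastQC for read quality, per the submitters' processing notes. Stranded poly-A libraries were sequenced with paired reads of 150 bases, per the labels' protocols. For the aligner, annotation release, strand setting and tool versions, the sources used here give nothing. By an annotation of GRCm38, exons of Irs1, Irs2 and Slc2a1 overlap a gene on the opposite strand, so their counts are uncertain if strand was not used. The largest exon overlap was 2822 bases for Irs1, 162 bases for Irs2 and 105 bases for Slc2a1. The overlapping gene had 6 to 32 counts per library for Irs2 and 0 to 1 for Slc2a1, and none were available for Irs1. A symbol was found for 65.7% of 78334 identifiers.

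The tests used edgeR 4.0.16 under R 4.3.3. Low genes were dropped by filterByExpr (minimum count 10, minimum total 15), scaled by TMM and fitted by group over all 5 libraries with a robust quasi-likelihood fit. The lone control library takes its spread from the other groups, where the biological coefficient of variation was 62.2%. P-values were adjusted by Benjamini-Hochberg over 24779 genes at 0.05. Tried beside this were DESeq2 1.42.0, limma-voom (limma 3.58.1), median-ratio size factors, no filter, a minimum count of 50, a non-robust fit, a fit of the compared groups alone, a replicate block and leaving out libraries.

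Exon lengths came from GENCODE M21 (GRCm38) and promoters from RefSeq (GRCm38.p6). Named are all 10 members and, of each pathway list and comparison, the 2 genes with the smallest p and a mean of at least 1 CPM, of which a selection is given; 1 pathway gene is counted but not reported here by name. Akt1 was named after its values were seen. For patterns, 3 nearest genes were ranked per member with a prior count of 2. Members and lists were chosen with earlier results of these data known. Python 3.11.15 with matplotlib 3.10.9 drew the figures.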

Additional observations from a re-analysis of the deposited data

How the results depend on the processing

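The number of genes called depended on the tool and on which libraries were fitted. EdgeR's 0 calls over all 5 libraries in each comparison became 2575 for obesity against control, 25 for resveratrol against obesity, and 1671 for resveratrol against control with no filter on low counts (43522 genes tested), and 4524, 219 and 3085 with DESeq2. Limma-voom called 80 genes in resveratrol against control, and a fit of only the 2 groups compared called 9269 of 23511 in obesity against control. Leaving out each library in turn gave 0 to 9227 calls in obesity against control, 0 to 4758 for resveratrol against obesity and 0 to 7469 for resveratrol against control, the high counts coming without a resveratrol library. Leaving out the control and resveratrol library 1 together gave 66 in resveratrol against obesity. Median-ratio size factors, a minimum count of 50 and a fit that is not robust called 0 genes in each comparison. The cause was not tested, except that leaving out a resveratrol library takes the spread of that pair out of the fit.

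Of the members' log2 differences, none of obesity against control changed sign. In resveratrol against obesity, leaving out each library in turn gave -0.49 to 0.13 for Insr, -0.58 to 0.09 for Irs1, -1.57 to 0.37 for Irs2, -0.29 to 0.45 for Pik3r1, -1.30 to 0.12 for Akt2, -0.02 to 0.66 for Slc2a1 and -3.35 to 0.13 for Trarg1. Without the control and resveratrol library 1 together they were 0.12 for Insr, 0.09 for Irs1, 0.37 for Irs2, -0.29 for Pik3r1, 0.12 for Akt2, -0.02 for Slc2a1 and 0.13 for Trarg1. In resveratrol against control the ranges were -0.06 to 0.55 for Insr and -0.47 to 0.93 for Tbc1d4. With the replicate number as a block, these 2 differences were -0.05 for Insr and -0.26 for Tbc1d4, and 0 genes were called in each comparison. The block could be fitted on 2 pairs of obesity and resveratrol libraries that share a number and nothing else in the labels, and their deviations correlated at 0.282 across 24779 genes, which are not independent. On total counts, without TMM, the members' levels in the resveratrol and obesity libraries moved by less than the SD of their group, except Akt2 in obesity, at 393 and 385 CPM. In the control library, which has no SD, the levels of Insr, Pik3r1, Akt2 and Enpp1 moved beyond their 95% counting interval. The smallest count of a member in any library was 48, so depth limits Trarg1 in the control library most.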
